A study of Mus musculus with 6 samples.

Results

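The mitochondrial genome of the mouse encodes 37 genes: 13 subunits of the respiratory chain and of ATP synthase, 2 ribosomal RNAs (rRNAs) and 22 transfer RNAs (tRNAs). All 37 were among the 39179 genes counted in each library, and they were taken by their symbols, which start with mt-. Their counts were compared in liver from C57BL/6J mice in which hematoxylin and eosin staining had separated isolated steatosis from nonalcoholic steatohepatitis (NASH). Every animal, in either group, was obese and had eaten a diet with 60% of its calories as fat from the age of 5 weeks for 21 weeks. There was no genetic change and no drug, and a lean group was not analysed here. Each group has 3 libraries, numbered 1 to 3. They are taken as 3 mice, which the labels do not state outright, so that p-values measure the spread between these samples.

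Mitochondrial DNA is transcribed from both of its strands into long RNAs that run over many genes. Enzymes then cut out the tRNAs that lie between the coding genes and the rRNAs, which frees the messengers, and most messengers receive a short poly(A) tail. The products are built into complexes I, III, IV and V of oxidative phosphorylation together with many more subunits that are encoded in the nucleus, while complex II is nuclear-encoded throughout. Liver cells are rich in mitochondria, so these RNAs are abundant in liver.

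The genes are packed so tightly that their sequence bears on what could be counted. Lengths and positions are those of GENCODE M21 on GRCm38, and the sequences are from its transcripts. The largest gap between neighbouring genes was 32 bases, and several genes overlap. A read over an overlap covers bases of both genes. The overlaps of coding genes are therefore shown, except the 1 base shared by mt-Atp6 and mt-Co3. Capitals mark the start codon of the second gene, or the stop codon of mt-Nd5 in the last of them, where mt-Nd6 lies on the opposite strand.
mt-Atp8/mt-Atp6 (chrM:7927-7969, plus strand): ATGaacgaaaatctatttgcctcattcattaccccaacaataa
mt-Nd4l/mt-Nd4 (chrM:10167-10173, plus strand): ATGctaa
mt-Nd5/mt-Nd6 (chrM:13552-13565, plus strand): ttaatctcgagTAA

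The ends of the coding genes are shown for their stop codons. In mt-Co3, mt-Nd4 and mt-Cytb, 3 of the 13, the gene ends within the stop codon and only its T is encoded. The A residues of the poly(A) tail complete such codons, which is known from textbook biology and was not measured here. Capitals mark the encoded part of the stop codon, first in mt-Co1 and mt-Nd2, whose stop codon is complete.
mt-Co1 (chrM:6852-6872, plus strand): acctatgtaaaagtaaaaTAA
mt-Nd2 (chrM:4931-4951, plus strand): gccccccaactaattaccTAG
mt-Co3 (chrM:9370-9390, plus strand): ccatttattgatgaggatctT
mt-Nd4 (chrM:11524-11544, plus strand): taattacaggcctgacaataT
mt-Cytb (chrM:15268-15288, plus strand): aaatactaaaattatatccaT

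Libraries were made from polyadenylated RNA and held between 13909238 and 18002095 gene counts. The hepatocyte markers Alb, Apoa1, Ttr and 7 others were all detected and together reached 65448 to 83222 CPM (counts per 1000000 counts), relative to the counts outside the mitochondrial and rRNA-like genes. Reads at 4 nuclear loci that resemble rRNA (Lars2, Gm26917, Gm23935 and Gm42418) took 22.3% of NASH 3 and 8.96% of steatosis 2, against at most 1.06% elsewhere. These 2 libraries stand apart, and results are given with and without them where they matter.

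Most of each library was mitochondrial RNA, and the share of the groups overlapped. The 37 genes took 77.9%, 68.3% and 70.6% of the counts in steatosis 1, 2 and 3, and 81.8%, 83.9% and 62.0% in NASH 1, 2 and 3. The means were 72.3% ± 5.00 and 75.9% ± 12.1 (SD, n = 3 each), so the difference of 3.61 percentage points was smaller than the spread between libraries. It ranged from -0.409 (without NASH 2) to 10.6 (without NASH 3) when 1 library was left out, and it was also much smaller without NASH 1 (0.673). NASH 3, which has the most rRNA-like reads, had the lowest share of all 6 and NASH 2 the highest. With the rRNA-like loci left out of the total, the values were 78.5%, 75.1% and 71.2% in steatosis and 82.6%, 84.4% and 79.8% in NASH. On this second denominator each NASH library lay above each steatosis library. In the 4 libraries with few rRNA-like reads, on the first denominator, the difference was 8.59 percentage points.

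**Figure D1:**
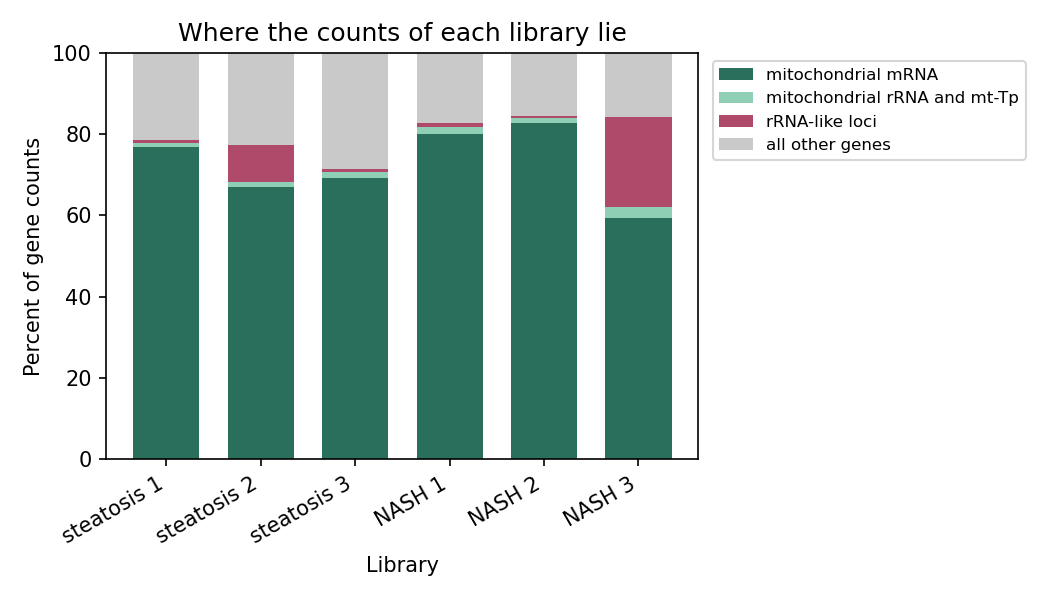
Percent of gene counts (vertical axis) in each of the 6 libraries that lay on mitochondrial mRNAs, on mitochondrial rRNAs and mt-Tp, on 4 nuclear loci with rRNA-like sequence, and on all other genes. Mitochondrial mRNA fills most of every bar, and the rRNA-like part is widest in NASH 3 (22.3%) and steatosis 2 (8.96%).

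Within the mitochondrial counts nearly everything was messenger RNA. The 13 coding genes held 98.7%, 97.9% and 98.2% of the mitochondrial counts in steatosis and 97.9%, 98.7% and 95.9% in NASH. The 2 rRNAs, which are the most abundant RNAs of mitochondria when total RNA is measured, held 1.19%, 1.98% and 1.67% in steatosis and 1.92%, 1.22% and 4.06% in NASH. NASH 3 was the highest of all 6 libraries, and the difference between the groups was -0.0436 percentage points without it. The rest was 1 tRNA gene, mt-Tp.

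The messengers differed widely in level per length. Levels are given as counts per kb of gene per 1000 counts of the library, as mean ± SD over all 6 libraries. The 3 subunits of complex IV, the cytochrome b of complex III and mt-Atp6 of ATP synthase stood at the top. mt-Co1, the catalytic subunit of cytochrome c oxidase, was highest with 159 ± 25.7. Its lowest library (127) lay above the highest library of any other gene (mt-Cytb, 111). mt-Cytb (86.0 ± 14.9), mt-Co2 (77.9 ± 7.22), mt-Atp6 (75.4 ± 8.82) and mt-Co3 (73.4 ± 8.17) followed, with overlapping ranges. In neighbouring pairs of these 4, the order held in 5 of 6 libraries.

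The subunits of complex I formed the lower levels. mt-Nd2 (51.6 ± 9.43), mt-Nd1 (48.0 ± 7.41) and mt-Nd4 (46.1 ± 5.00) could not be ranked by their ranges, and mt-Nd1 exceeded mt-Nd4 in only 3 of 6 libraries. mt-Nd5 (22.3 ± 3.37), mt-Nd3 (16.98 ± 0.865) and mt-Nd6 (14.6 ± 2.41) came next. mt-Nd6 is the only coding gene read from the other strand, and since it is not known whether strand was used in counting, its reads cannot be told from antisense RNA of the opposite transcript. mt-Nd4l (6.59 ± 1.15, without the counts of its nuclear copy given below) and mt-Atp8 (1.43 ± 0.76) were the lowest messengers. The rRNAs stood at 5.74 ± 2.82 (mt-Rnr1) and 5.56 ± 2.01 (mt-Rnr2), so that mt-Co1 was 28.6 times as high as mt-Rnr2 per length.

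**Figure D2:**
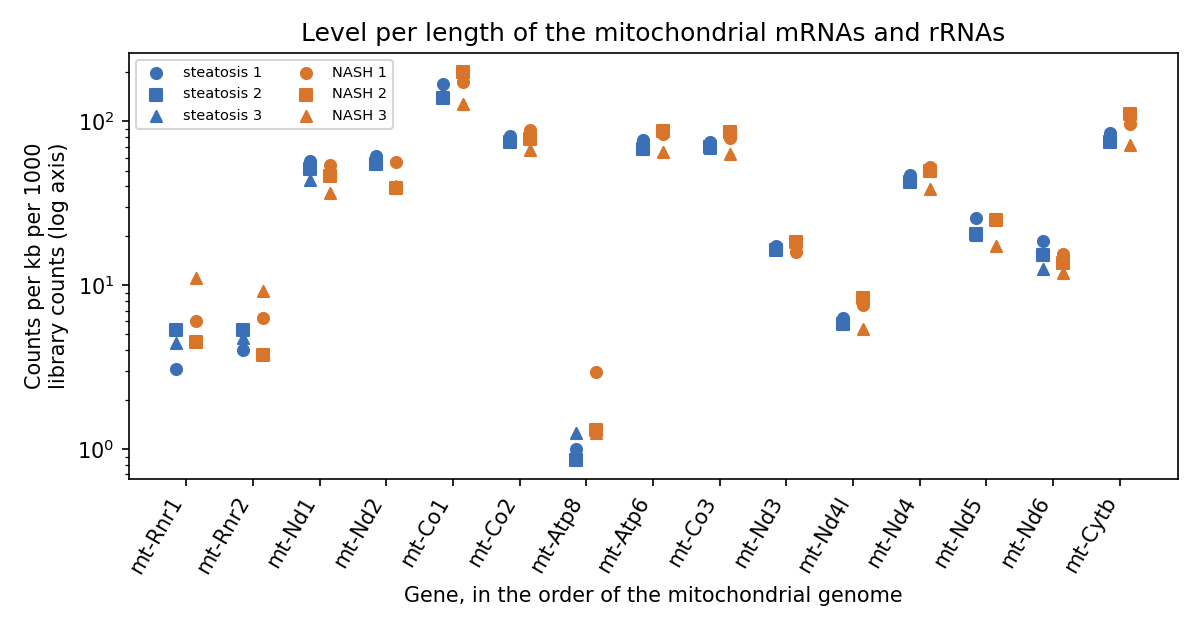
Counts per kb of gene per 1000 library counts (vertical log axis) of the 13 mitochondrial messengers and 2 rRNAs, in genome order, with 1 point per library (steatosis blue, NASH orange, replicates by shape). mt-Co1 is highest (mean 159) and mt-Atp8 lowest (mean 1.43).

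The 2 lowest messengers are also those with the least room for a read. A read of 150 bases can start at 1393 positions inside mt-Co1 without touching another gene, at 141 positions inside mt-Nd4l and at 12 inside mt-Atp8, whose last 43 bases are those of the overlap printed above. Counted per such position instead of per kb, mt-Atp8 moved from the last to the 11th of the 15 genes, with 24.4 CPM per position against 105 CPM for its neighbour mt-Atp6. mt-Nd4l then stood at 13.9 CPM per position and mt-Nd4 at 52.0. Per-length values of mt-Atp8 and mt-Nd4l are therefore not comparable with those of the longer genes. Both ends of a fragment were read, and fragment length is not given, so these positions are an approximation.

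Among the tRNAs only mt-Tp, the tRNA for proline, had counts. Steatosis 1, 2 and 3 held 9616, 12669 and 19926 reads and NASH 1, 2 and 3 held 18209, 6761 and 5463. In raw reads NASH 1 lay between steatosis 2 and steatosis 3, while NASH 2 and NASH 3 were the lowest. As a share of the library NASH 1 was the highest, at 0.116% against 0.0571% to 0.111% in steatosis. NASH 2 (0.0385%) and NASH 3 (0.0393%) were again the lowest, so the groups overlapped on both measures. The other 21 tRNA genes had 0 counts in every library, which allows a share of up to 2.16e-05% of the shallowest library (3 counts, counting error only). All 22 tRNA genes are 59 to 75 bases long, shorter than a read. For the 21 genes without counts there is no position at which a read of 150 bases would touch the gene and no other gene on the linear reference. For mt-Tp there are 67, because it is the last annotated gene before the control region. Its counts may thus include RNA of the control region. It is printed as the only tRNA with data, with its anticodon in capitals.
mt-Tp (chrM:15356-15422, minus strand): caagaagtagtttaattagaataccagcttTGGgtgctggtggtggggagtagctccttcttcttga

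Copies of mitochondrial DNA in the nucleus limit several of these values. A block on chromosome 1 (chr1:24611535-24616197, minus strand) holds 7 annotated pseudogenes that match mt-Nd4, mt-Nd4l, mt-Nd3, mt-Co3, mt-Atp6, mt-Co2 and mt-Co1 with at least 99.7% identity over the aligned bases. Of all stretches of 150 bases in a gene, 99.8% of mt-Co3, 99.4% of mt-Co2 and of mt-Atp6, 98.0% of mt-Nd4l, 97.0% of mt-Nd3, 59.2% of mt-Nd4 and 23.6% of mt-Co1 occurred unchanged in an annotated nuclear transcript. The other 6 coding genes and both rRNAs had none. How reads that fit more than 1 place were treated is not given in the sources used here, so the counts of these 7 genes are uncertain in level.

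For mt-Nd4l the nuclear copy was counted as a gene of its own. Gm10222 (294 bases, chr1:24612407-24612700) is identical to 294 of the 297 bases of mt-Nd4l, and it is the only 1 of the 7 pseudogenes that the count files list. In steatosis it had counts of 109049, 84990 and 113845, and in NASH of 115105, 157009 and 80015. For mt-Nd4l itself the steatosis counts were 31519, 25769 and 32201 and the NASH counts 35525, 43788 and 22369. The ratio of Gm10222 to mt-Nd4l was nearly the same in every library, 3.46, 3.30 and 3.54 in steatosis and 3.24, 3.59 and 3.58 in NASH. Reads of the 2 genes cannot be told apart by their sequence.

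The comparison of NASH with steatosis asks whether mitochondrial transcripts differ between fatty livers with and without steatohepatitis. No mitochondrial gene passed the test across all genes, and with TMM scaling, but not with total counts, every estimate was above 0. Of the 37 genes, 16 passed the filter on low counts and 0 were called by edgeR's quasi-likelihood test at a Benjamini-Hochberg adjusted p under 0.05, against 4.82% of all 11375 genes tested (1.49% higher in NASH). At an unadjusted p under 0.05 there were 4 of 16, mt-Atp8, mt-Rnr1, mt-Rnr2 and mt-Nd4l, all with positive estimates, beside 23.2% of all genes (10.2% higher and 12.9% lower). DESeq2 called 2 (mt-Atp8 and mt-Rnr1) and limma-voom 0. All 16 log2 fold changes were above 0 (5 of them were below 0 with total counts), and those of the 13 coding genes ran from 0.08 to 1.26 with a median of 0.49, against 0.01 for all genes tested. These genes share long precursor RNAs and 1 denominator, so they are not independent. In bulk tissue, fewer cells of a type and less RNA per cell cannot be told apart.

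The levels in CPM, here relative to library sizes scaled with TMM factors, show the same. mt-Co1 stood at 268900, 191237 and 154593 CPM in steatosis 1, 2 and 3 and at 292483, 360759 and 248686 CPM in NASH 1, 2 and 3. Steatosis 1 lay above NASH 3, so the groups overlapped (log2 fold change 0.55 with an SE of 0.41, adjusted p = 0.463 by edgeR). mt-Cytb stood at 101136, 76269 and 59614 CPM in steatosis and at 120019, 149154 and 103560 CPM in NASH. Here all 3 NASH libraries were above all 3 steatosis libraries, but steatosis 1 and NASH 3 nearly met (log2 fold change 0.65 with an SE of 0.38, adjusted p = 0.339 by edgeR). On this scale the groups did not overlap, with NASH higher, for 7 of the 16 genes (mt-Cytb, mt-Nd4, mt-Nd4l, mt-Co3, mt-Atp6, mt-Atp8 and mt-Rnr1), against 13.1% of all genes, and for none with NASH lower. Over all genes 29.3% did not overlap in either direction.

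The direction depends on how libraries are scaled. Relative to total counts with no factor, the median log2 fold change of the 13 coding genes was 0.06 and that of all genes -0.48, and mt-Co2, mt-Nd1, mt-Nd2, mt-Nd6 and mt-Tp had estimates below 0. The distance of the coding genes from the median of all genes was 0.54 there and 0.49 with TMM. A change of scaling moves all genes by nearly the same amount, so this distance could hardly change and is no separate check. Without steatosis 3, whose TMM factor was the largest, that distance was 0.33, and without steatosis 1 it was 0.71.

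mt-Atp8, which encodes a small subunit of ATP synthase, came closest to the threshold. Its levels were 212, 157 and 170 CPM in steatosis and 657, 313 and 323 CPM in NASH. All NASH libraries were higher, and NASH 1 held about as much as the other two together. Its log2 fold change of 1.26 had an SE of 0.32 and an adjusted p of 0.0534 by edgeR. The estimate was 0.83 without NASH 1 and 0.82 with total counts. It was called with DESeq2 (adjusted p = 0.00154), without the low-count filter (edgeR adjusted p = 0.000991), with upper-quartile factors (0.0476), with library sizes from the other genes (0.0425) and with the replicate number as a block (0.0443). It was not called in any of the 6 fits that left out 1 library, where the lowest adjusted p was 0.0592. These counts rest on the 12 read positions given above.

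To compare the messengers with each other, each gene was also measured against the summed counts of the 13 coding genes. This removes the change that all of them share. Again 0 of the 16 genes was called by edgeR, against 12.7% of all genes (0.457% higher in NASH). The scale itself holds the 13 coding genes near 0 (median log2 fold change -0.00048), while the median of all genes was -0.54. The share of all genes called is therefore not a like comparison here. At an unadjusted p under 0.05 there were 3, mt-Rnr1 and mt-Atp8 with positive estimates and mt-Nd2 with a negative one, beside 29.3% of all genes at that threshold (0.923% higher and 28.4% lower). The estimate for mt-Atp8 was 0.74 (SE 0.35, edgeR adjusted p = 0.156), and 0.33 without NASH 1.

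The share of most messengers in the pool overlapped between the groups. mt-Co1 made up 33.7%, 32.0% and 33.4% of the coding counts in steatosis and 33.4%, 36.98% and 33.1% in NASH. mt-Atp6 made up 6.77%, 6.90% and 7.12% in steatosis and 7.08%, 7.20% and 7.43% in NASH. mt-Nd4, mt-Nd5, mt-Co2, mt-Co3, mt-Nd1, mt-Nd3 and mt-Nd6 overlapped as well. The groups did not overlap for 3 genes of the 16, with NASH higher for mt-Cytb and mt-Nd4l and lower for mt-Nd2. Over all genes 32.7% did not overlap on this scale, 0.862% with NASH higher and 31.9% with NASH lower.

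mt-Nd2, a core membrane subunit of complex I, had the most negative estimate among the messengers. It held 8.27%, 8.51% and 8.62% of the coding counts in steatosis and 7.34%, 4.92% and 7.04% in NASH. The steatosis libraries lay close together, while NASH 2 was far below the other NASH libraries. The log2 fold change against the messenger pool was -0.40 (SE 0.19, edgeR adjusted p = 0.16), and it was -0.24 without NASH 2. mt-Cytb held 12.7%, 12.8% and 12.9% in steatosis and 13.7%, 15.3% and 13.8% in NASH, which gave 0.16 on the log2 scale (SE 0.17, adjusted p = 0.529 by edgeR). NASH 2 stood apart here too, as the highest. mt-Nd4l held 0.243%, 0.259% and 0.258% in steatosis and 0.281%, 0.301% and 0.271% in NASH (log2 fold change 0.17 with an SE of 0.28, adjusted p = 0.703 by edgeR). Together with Gm10222 it held 1.08%, 1.11% and 1.17% in steatosis and 1.19%, 1.38% and 1.24% in NASH, again without overlap.

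**Figure D3:**
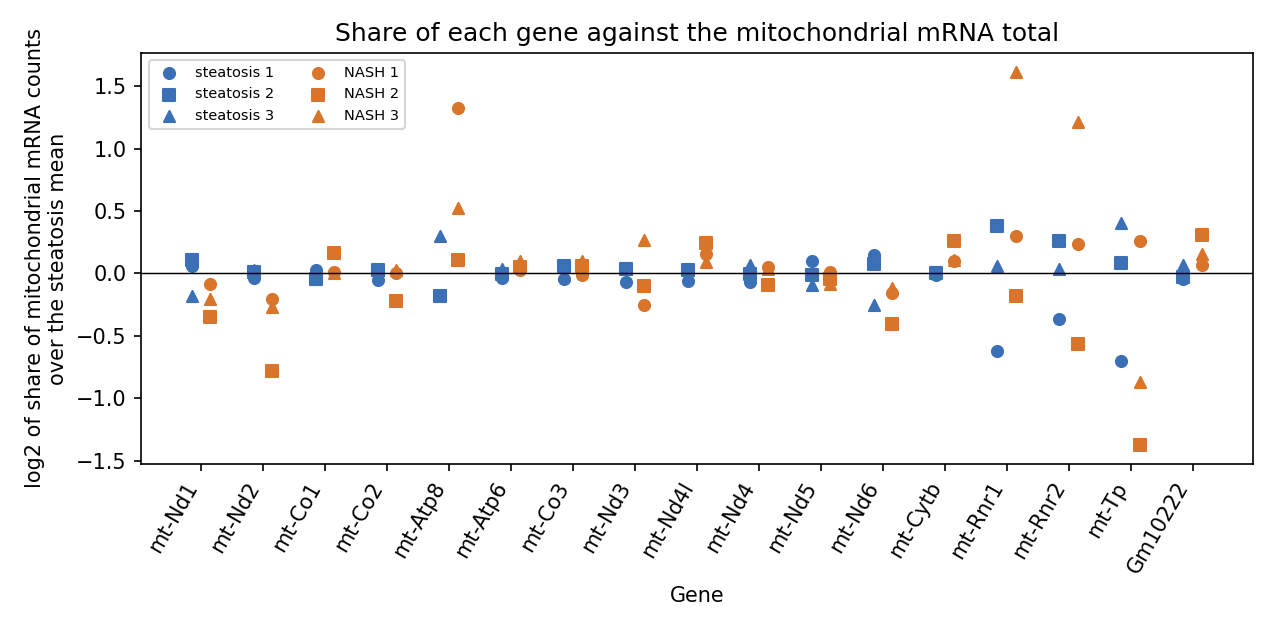
Share of each gene, and of the nuclear copy Gm10222, against the mitochondrial mRNA total, as log2 over the mean of the steatosis libraries (vertical axis), with 1 point per library. Most messengers stay close to 0, mt-Nd2 is lower in all NASH libraries (NASH 2 at -0.78), and mt-Atp8, the rRNAs and mt-Tp spread most.

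Summed by complex, the shares of complexes I and III did not overlap between the groups, although no gene of either was called. The 7 complex I genes made up 32.1%, 32.5% and 31.2% of the coding counts in steatosis and 30.5%, 25.9% and 29.5% in NASH, so that all NASH libraries were lower. The difference of the means, -3.25 percentage points, was -1.88 without NASH 2. Most of it came from mt-Nd2, whose mean share was 8.47% in steatosis and 6.43% in NASH, and from mt-Nd1 (6.81% and 5.89%). The means of mt-Nd3 (0.827% and 0.820%) and mt-Nd4 (8.77% in each group) were close, and mt-Nd4l went the other way. Complex III is mt-Cytb alone, with a difference of 1.49 percentage points, and 0.97 without NASH 2. The 3 complex IV genes made up 48.5%, 47.8% and 48.8% in steatosis and 48.6%, 51.6% and 49.2% in NASH, and the 2 complex V genes 6.80%, 6.92% and 7.16% against 7.15%, 7.23% and 7.47%. Both of these overlapped, but weighted per kb the complex V share did not (10.8%, 10.8% and 11.3% in steatosis, 11.5%, 11.7% and 11.7% in NASH). Shares within a total are tied to each other, since a gain of 1 gene lowers all others.

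The rRNAs had larger estimates than most messengers, but neither passed. mt-Rnr1, of the small ribosomal subunit, stood at 3037, 4538 and 2821 CPM in steatosis and at 6285, 5027 and 13410 CPM in NASH (log2 fold change 1.25 with an SE of 0.41, adjusted p = 0.104 by edgeR). mt-Rnr2, of the large subunit, stood at 6568, 7550 and 5036 CPM in steatosis and at 10915, 6989 and 18372 CPM in NASH (log2 fold change 0.92 with an SE of 0.39, adjusted p = 0.191 by edgeR). NASH 3 was the highest library for each by far, and without it the estimates were 0.72 and 0.50. With total counts they were 0.75 and 0.45. The libraries with the most rRNA-like nuclear reads, NASH 3 and steatosis 2, had the highest mitochondrial rRNA share of their groups.

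Against the messenger pool the rRNA estimates rested on single libraries. They were 0.79 for mt-Rnr1 (SE 0.32, edgeR adjusted p = 0.0971) and 0.47 for mt-Rnr2 (SE 0.29, edgeR adjusted p = 0.277). Without NASH 3 they were 0.08 and -0.11. Without NASH 2 they were 1.10 and 0.80, and both passed (edgeR adjusted p = 0.000503 and 0.00976). Without NASH 1 mt-Rnr1 alone passed (edgeR adjusted p = 0.0283). In the 4 libraries with few rRNA-like reads the estimates were 0.32 and 0.038 against the messenger pool, and 0.95 and 0.63 with TMM, none of them called.

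The nuclear-encoded partners of these subunits pointed the other way. Of 78 nuclear subunits of complexes I to V, 21 fell and 0 rose by edgeR's test, against 3.33% of all genes lower, and their median log2 fold change was -0.69. The groups did not overlap, with NASH lower, for 53 of the 78, against 16.2% of all genes. The calls were spread over the complexes, with 8 of 36 genes in complex I, 2 of 4 in complex II, 3 of 9 in complex III, 4 of 11 in complex IV and 4 of 18 in complex V. They included Ndufs4, Ndufa7, Ndufc2, Ndufb9, Ndufa2 and Ndufb10 of complex I, Sdha and Sdhc of complex II, Uqcrh, Uqcr10 and Uqcrfs1 of complex III, Cox8a, Cox6a1, Ndufa4 and Cox4i1 of complex IV, and Atp5g3, Atp5j2, Atp5mpl and Atp5c1 of ATP synthase. Where such genes have processed pseudogenes, reads may have been split.

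Atp5g3, which encodes the membrane ring subunit of ATP synthase, stood at 48.3, 42.9 and 34.3 CPM in steatosis and at 14.6, 9.24 and 13.1 CPM in NASH. No NASH library came near the steatosis range (log2 fold change -1.77 with an SE of 0.24, adjusted p = 0.00554 by edgeR). Uqcrh, the hinge subunit of complex III, stood at 18.8, 17.3 and 19.0 CPM in steatosis and at 8.20, 5.09 and 7.26 CPM in NASH (log2 fold change -1.43 with an SE of 0.21, adjusted p = 0.00874 by edgeR). Atp5g3 and Uqcrh passed in each fit without 1 library. Cox8a (-1.39), Ndufa4 (-1.60) and Ndufs4 (-1.24) fell too, but the first pair lost the call without steatosis 1 or 2, and Ndufs4 without steatosis 1 or NASH 1.

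The number of nuclear calls varied with the libraries. It was 16 without steatosis 3, but 2, 3, 5, 7 and 10 without steatosis 1, steatosis 2, NASH 1, NASH 2 and NASH 3. Lower calls over all genes went from 379 to 298 without steatosis 3 and to 77, 85, 120, 127 and 137 in these 5 fits. In the 4 libraries with few rRNA-like reads edgeR called 0 of the 78, and 19 of all genes were called lower. The median log2 fold change of the 78 was -0.76 there.

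Measured against the mitochondrial messenger pool, 48 of the 78 nuclear subunits were lower in NASH and 0 higher by edgeR's test, with a median log2 fold change of -1.17. On this scale 12.2% of all genes were lower, with a median of -0.54. The count was 7 in the 4 libraries with few rRNA-like reads and 16, 21, 25 and 30 without NASH 2, NASH 1, steatosis 2 and steatosis 3, while it was 47 without NASH 3 and 59 without steatosis 1. For every count of a nuclear subunit there were 331, 298 and 252 counts of mitochondrial coding genes in steatosis and 630, 839 and 551 in NASH. The lowest NASH library thus lay well above the highest steatosis library. By complex, this ratio was 320, 291 and 231 in steatosis and 544, 576 and 461 in NASH for complex I. For complex IV it was 848, 758 and 698 in steatosis against 1950, 2914 and 1667 in NASH, and for complex V 98.8, 92.2 and 75.2 against 213, 281 and 194. None of these ratios overlapped between the groups. On the scale of the messenger pool, 31.9% of all genes were also lower in NASH without overlap. Of the counts outside the mitochondrial and rRNA-like genes, these subunits took 1.09%, 0.988% and 0.963% in steatosis and 0.740%, 0.638% and 0.686% in NASH.

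**Figure D4:**
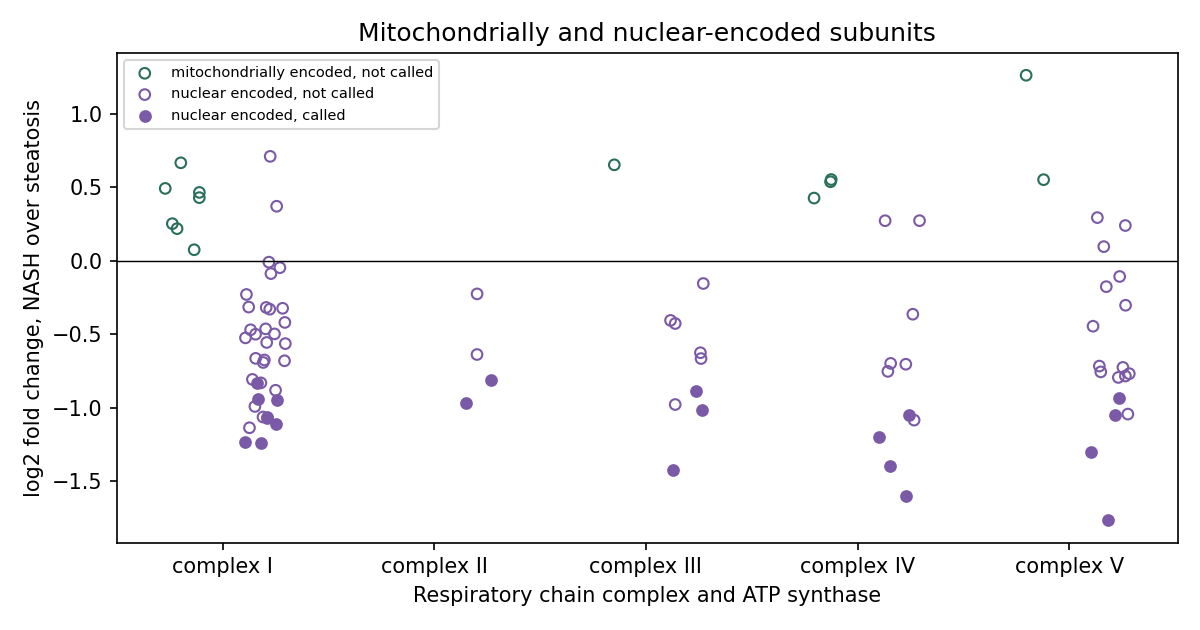
log2 fold change of NASH over steatosis (vertical axis, edgeR with TMM scaling) for each mitochondrially encoded and each nuclear-encoded subunit, by complex; filled points passed at an adjusted p under 0.05. All 13 mitochondrial genes are above 0 (4 are below 0 with total counts) and none passed, while 71 of the 78 nuclear genes are below 0 and 21 passed.

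Of 87 tested genes that maintain and express mitochondrial DNA, 2 passed the test (2.30%, beside 4.82% of all genes). Of 17 genes of mitochondrial DNA replication, 16 were tested and 1 rose (median log2 fold change 0.22). This was Primpol, a primase and polymerase that also acts in the nucleus, which went from 1.23, 1.14 and 1.11 CPM to 3.13, 3.88 and 2.81 CPM (log2 fold change 1.5003 with an SE of 0.26, adjusted p = 0.0152 by edgeR). It no longer passed when steatosis 1, steatosis 2 or NASH 2 was left out or with total counts, and it overlaps other genes on the opposite strand. The next smallest p belonged to Top3a, a topoisomerase (log2 fold change 0.32, edgeR adjusted p = 0.492).

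None of the 9 transcription genes was called (edgeR, median 0.12), and at an unadjusted p under 0.05 there were 2 with positive and 3 with negative estimates, beside 23.2% of all genes. The 3 were Mterf4 (-0.63), Tefm (-0.69) and Tfb2m (-0.67), named after their values were seen. The smallest p belonged to Mterf1a and Mterf3, of the termination factor family, at 0.93 and 0.47 on the log2 scale (edgeR adjusted p = 0.104 and 0.141). The mitochondrial RNA polymerase Polrmt stood at 0.12 (edgeR adjusted p = 0.767) and Tfam, which packages mitochondrial DNA and starts transcription, at -0.01 (edgeR adjusted p = 0.988). These 2 and Lrpprc, which stabilizes the messengers, were named after their values were seen. Lrpprc stood at 18.5 ± 1.57 CPM in steatosis and 17.7 ± 1.33 CPM in NASH (SD, n = 3 each).

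Of 37 genes of RNA processing, modification and stability 0 were called by edgeR (median 0.15). At an unadjusted p under 0.05 there were 2 with positive and 3 with negative estimates, beside 23.2% of all genes. The smallest p belonged to Hsd17b10, a subunit of the enzyme that cuts the 5' ends of the tRNAs (log2 fold change -0.78, edgeR adjusted p = 0.0895), and Tfb1m, which methylates the small rRNA (0.86, edgeR adjusted p = 0.11). The others at that unadjusted threshold were Slirp (0.91), Ddx28 (-1.31) and Grsf1 (-0.54), named after their values were seen. Their groups did not overlap. Among 13 tested translation factors 1 fell, Gatb, which helps to charge the glutamine tRNA (log2 fold change -0.95 with an SE of 0.21, adjusted p = 0.0324 by edgeR). Its call was lost in each of the 6 fits without 1 library. Tufm, the elongation factor, stood at -1.39 (edgeR adjusted p = 0.0531). Of 12 regulators of mitochondrial biogenesis 0 were called by edgeR (2 at an unadjusted p under 0.05, beside 23.2% of all genes). These 2 were Pprc1 at 0.71 (edgeR adjusted p = 0.111) and Gabpb1 at 0.53 (edgeR adjusted p = 0.161). The median of the 12 was -0.008, with 6 positive and 6 negative estimates. Ppargc1a, named after its value was seen, stood at -0.54 (edgeR adjusted p = 0.284). It was lower in NASH without overlap, as were 16.2% of all genes.

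Summed markers of 3 other liver cell types did not overlap between the groups. Summed counts of 6 sinusoidal endothelial markers, as CPM of other genes, were 362, 301 and 337 in steatosis and 676, 478 and 521 in NASH. That sum followed Stab1 (37.1 CPM in steatosis and 62.9 in NASH on average), and 0 of the 6 were called by edgeR. Pecam1 and Clec4g were also higher without overlap, while Stab2, Kdr (log2 fold change 0.05) and Lyve1 (-0.21) overlapped. Of all genes tested 13.1% were higher and 16.2% lower without overlap, and 4.82% were called. Sums of 6 stellate cell markers were 213, 226 and 235 in steatosis against 169, 196 and 166 in NASH. The stellate sum followed Dcn (23.1 CPM in steatosis and 11.4 in NASH on average). Dcn was the only 1 of the 6 called (log2 fold change -1.03, adjusted p = 0.0348 by edgeR). Des, Rgs5 and Lrat had positive estimates, and the median over the 6 was -0.07. Sums of 5 cholangiocyte markers were lower in NASH without overlap, from 125 to 207 in steatosis and from 68.0 to 118 in NASH. That sum followed Spp1 (28.5 and 16.1 CPM on average), while Sox9 (0.484 and 0.840 CPM) was higher in NASH without overlap, and only 3 of the 5 passed the low-count filter. Macrophage, lymphocyte, neutrophil, erythroid and hepatocyte sums overlapped. Of the 10 hepatocyte markers 5 had positive and 5 negative estimates, and 0 were called by edgeR (median log2 fold change -0.12). Apoa2 (-0.79), Ttr (-0.54) and Alb (-0.40) were lower in NASH without overlap, Apoa1 (0.50) was higher without overlap, and the rest overlapped. Against the messenger pool 3 of the 10 were called lower, beside 12.2% of all genes. Every marker listed had counts in at least 1 library. The part of these cells in the mitochondrial values was not tested.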

How the data were processed

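Polyadenylated liver RNA was sequenced as paired reads of 150 bases, per the labels' protocols. The submitters' processing notes name TopHat2, HTSeq and mm10 (GRCm38). Tool versions, gene annotation, use of strand and handling of reads with several matches are not stated there or in the labels. The authors deposited raw counts per gene, not normalized. A symbol was found for 37607 of 39179 identifiers.

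Counts were tested with edgeR 4.0.16 in R 4.3.3: default low-count filter, TMM factors, quasi-likelihood test, Benjamini-Hochberg adjustment over 11375 genes, calls at an adjusted p under 0.05. A second fit took the summed counts of the 13 mitochondrial coding genes as library size. The standard error (SE) is the log2 fold change over the root of F. Sums over the members have no p, since 3 against 3 libraries cannot go below 0.1 in an exact permutation test. DESeq2 1.42.0, limma-voom (limma 3.58.1), other scalings and filters, a replicate block and leaving out libraries were alternatives. The edgeR fit was also run on counts simulated from its own model and fitted dispersions. This cannot show how it handles the libraries that stand apart. Windows of 150 bases were compared with GENCODE M21 transcripts, and pseudogenes aligned with blastn 2.17.0.

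All 13 coding genes, both rRNAs and any tRNA passing the filter are named, and from each nuclear list its called genes up to 6 or the 2 with the smallest p. The members and lists were chosen with earlier results of these data known. The replicate numbers were not used to pair the animals in the main fits, since the titles of the libraries give only a group and a number.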

Additional observations from a re-analysis of the deposited data

How the results depend on the processing

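No mitochondrial gene was called in the fit of all genes with TMM, and 1 was called with upper-quartile factors, with library sizes from the counts of other genes or with the replicate block (mt-Atp8 each time), and 2 with DESeq2 or without the filter (mt-Atp8 and mt-Rnr1). The count stayed at 0 without any 1 library and against the messenger pool lay between 0 and 2 there (2 without NASH 2, 1 without NASH 1). The 21 lower nuclear subunits became 52 with total counts, 36 without the filter and 18 with the replicate block. Lower calls over all genes went from 379 to 1554, 912 and 313 in these fits. In the 4 libraries with few rRNA-like reads (a choice made after seeing the data) 0 subunits were called, with 19 lower calls over all genes. Without 1 library there were 2 to 16, with 77 to 298 over all genes. Against the messenger pool the 48 became 7 in those 4 libraries and 16 to 59 without 1 library. Genes of replication, transcription, processing, translation and biogenesis, 2 called in all, numbered 7 with total counts and 1 with the counts of other genes. Over all genes these fits called 53 and 179 higher and 1554 and 222 lower, beside 169 and 379 in the main fit. The number was 5 with DESeq2 and 6 without the filter, where 300 and 535 of all genes were called higher and 512 and 912 lower. It was 0 in the 4 libraries and 0 to 1 without 1 library. The cause of these changes was not tested; fits with fewer libraries also have less power by construction. Per kb, the difference in share was 0.64 instead of 0.32 percentage points for complex V and -0.32 instead of -0.16 for mt-Nd6, and for complex V the groups then no longer overlapped. Of all calls, 30.8% were higher with TMM, 44.6% with the counts of other genes and 3.30% with total counts.

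Several estimates changed sign. With total counts these were mt-Co2 (-0.0036), mt-Nd1 (-0.15), mt-Nd2 (-0.35), mt-Nd6 (-0.18), mt-Tp (-0.39), Top3a (-0.20) and Mterf3 (-0.023). mt-Tp was at -0.078 with limma-voom and -0.091 with the replicate block. Without 1 library, mt-Tp ranged from -0.55 to 0.35, mt-Nd2 from -0.067 to 0.29 and mt-Nd6 from -0.018 to 0.55. Against the messenger pool without 1 library, mt-Nd5 ranged from -0.084 to 0.012, mt-Nd3 from -0.18 to 0.096, mt-Nd4 from -0.033 to 0.042, mt-Co2 from -0.10 to 0.019 and mt-Rnr2 from -0.11 to 0.80. With the pool limited to coding genes without a nuclear copy, chosen after seeing the data, mt-Co2, mt-Nd3, mt-Nd4 and mt-Nd5 were at 0.016, 0.064, 0.072 and 0.035. The pairing of same-numbered libraries was checked by the correlation of their deviations, which was 0.03, -0.01 and 0.07. Pairs with different numbers ranged from -0.098 to 0.068. With 3 libraries per group, this check cannot show whether same-numbered libraries share more than a number.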
